A study of Mus musculus with 18 samples.

Results

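The 10 genes described here encode transcription factors and cofactors of blood stem and progenitor cells that are also used by the erythroid, megakaryocytic, mast cell and basophil lineages. They were Gata1, Gata2, Zfpm1, Tal1, Lyl1, Lmo2, Cbfa2t3, Runx1, Myb and Ikzf1, taken by symbol from the 34896 genes of the expression table. The series held 18 libraries from adult C57BL/6 mouse bone marrow, from animals of 6 to 12 weeks. RNA-seq covered wild type granulocyte-monocyte progenitors (GMPs), the bone marrow cells that give rise to granulocytes and monocytes, and 2 later stages of the neutrophil lineage, neutrophil precursors (preNeu) and mature neutrophils (matNeu), with 3 libraries each. ChIP-seq, which sequences the DNA bound by a protein or carrying a histone mark, covered CHD4 in GMPs of wild type (WT) mice and of mice homozygous for the Gfi1-/- allele (Gfi1KO), and H3K4me2 in wild type GMP, preNeu and matNeu cells, with 1 library each. ATAC-seq, which marks open chromatin, was listed for wild type preNeu and matNeu cells, but both lists held the same 16307 peaks and were used as 1 list without a stage. GMPs were sorted from lineage-depleted marrow pooled over several bones, and how many animals stand behind a library is not given in the sources used here, so that p-values measure the spread between libraries, which may be technical.

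GATA1 and GATA2 are zinc finger proteins that bind GATA motifs, and GATA2 is used in stem and progenitor cells before GATA1 takes over many of its sites in erythroid cells. FOG1, the product of Zfpm1, binds GATA1 and recruits the NuRD complex, of which CHD4 is the ATPase. The basic helix-loop-helix proteins TAL1 and LYL1 pair with E proteins on E-boxes, and LMO2 with LDB1 bridges them to GATA factors, while ETO2, the product of Cbfa2t3, acts as a corepressor of this complex. RUNX1 with its partner CBFB, MYB and the zinc finger protein IKAROS (Ikzf1) act more widely across blood cells, and IKAROS itself associates with NuRD. GFI1 is a transcriptional repressor required for neutrophil formation. H3K4me2 is a histone mark of active and poised promoters and enhancers.

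The CHD4 peaks of highest fold enrichment at these genes lay at Ikzf1, Myb and Runx1. The sequences at the 6 CHD4 sites of WT GMPs that were also listed in Gfi1KO GMPs are shown first, because they are the sites at which CHD4 was listed without GFI1. Each line gives 201 bases centred on the summit of the WT peak, read from the plus strand of GRCm38. Capitals mark, on either strand, the letters AGATAA or TGATAA bound by GATA factors, the E-boxes CAGATG or CAGCTG, the core TGTGGT of RUNX factors, the core GAGGAA of ETS factors and the core AAATCA of GFI1.
Myb exon, chr10:21146459-21146659: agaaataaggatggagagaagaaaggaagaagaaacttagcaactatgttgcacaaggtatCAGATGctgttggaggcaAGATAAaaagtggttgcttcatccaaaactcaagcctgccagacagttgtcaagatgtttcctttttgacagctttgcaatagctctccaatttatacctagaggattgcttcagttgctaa
Runx1 intron, chr16:92801670-92801870: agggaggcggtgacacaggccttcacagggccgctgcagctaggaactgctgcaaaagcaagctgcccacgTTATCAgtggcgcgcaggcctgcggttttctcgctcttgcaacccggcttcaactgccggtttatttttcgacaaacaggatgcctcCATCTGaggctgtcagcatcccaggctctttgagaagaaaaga
Ikzf1 intron, chr11:11688926-11689126: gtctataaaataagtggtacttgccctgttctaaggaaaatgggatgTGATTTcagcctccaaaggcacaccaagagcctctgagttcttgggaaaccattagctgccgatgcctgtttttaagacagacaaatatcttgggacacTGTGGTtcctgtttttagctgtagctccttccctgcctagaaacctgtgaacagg
Ikzf1 intron, chr11:11763474-11763674: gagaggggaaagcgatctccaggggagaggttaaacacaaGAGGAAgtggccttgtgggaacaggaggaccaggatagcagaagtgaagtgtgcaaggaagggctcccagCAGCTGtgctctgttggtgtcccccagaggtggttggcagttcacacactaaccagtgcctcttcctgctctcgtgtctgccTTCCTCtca
Ikzf1 downstream, chr11:11777364-11777564: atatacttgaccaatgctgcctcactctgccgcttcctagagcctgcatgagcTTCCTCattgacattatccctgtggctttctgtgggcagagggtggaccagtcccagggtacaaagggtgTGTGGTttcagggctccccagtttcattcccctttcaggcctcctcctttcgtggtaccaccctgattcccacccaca
Ikzf1 downstream, chr11:11781750-11781950: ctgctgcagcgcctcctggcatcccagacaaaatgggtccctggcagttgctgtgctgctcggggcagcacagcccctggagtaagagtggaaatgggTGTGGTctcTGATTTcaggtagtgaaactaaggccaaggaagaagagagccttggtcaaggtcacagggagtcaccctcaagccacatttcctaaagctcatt

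The windows of Myb and Runx1 each held 1 GATA motif and 1 E-box. No GATA motif was found in the 4 windows at Ikzf1, of which 3 held TGTGGT and 2 held AAATCA. The strongest CHD4 site of each other gene with a peak follows, and none of these was listed in Gfi1KO GMPs. Their WT fold enrichments were 4.41 to 6.39, beside 11.4 to 22.7 for the 6 sites above. Of all WT peaks under 10-fold, 2.57% overlapped a Gfi1KO peak. Peak strength and listing in Gfi1KO GMPs therefore cannot be told apart here. Each of these weaker sites held 1 E-box and no GATA motif.
Lmo2 intron, chr2:103965533-103965733: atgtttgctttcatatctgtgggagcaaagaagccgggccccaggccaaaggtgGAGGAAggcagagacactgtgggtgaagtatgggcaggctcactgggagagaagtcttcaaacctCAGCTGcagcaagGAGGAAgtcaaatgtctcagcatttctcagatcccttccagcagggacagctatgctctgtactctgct
Tal1 upstream, chr4:115047928-115048128: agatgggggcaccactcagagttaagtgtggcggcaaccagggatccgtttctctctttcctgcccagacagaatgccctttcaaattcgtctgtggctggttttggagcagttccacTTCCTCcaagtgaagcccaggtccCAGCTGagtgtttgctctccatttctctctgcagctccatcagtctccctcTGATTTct
Cbfa2t3 upstream, chr8:122702431-122702631: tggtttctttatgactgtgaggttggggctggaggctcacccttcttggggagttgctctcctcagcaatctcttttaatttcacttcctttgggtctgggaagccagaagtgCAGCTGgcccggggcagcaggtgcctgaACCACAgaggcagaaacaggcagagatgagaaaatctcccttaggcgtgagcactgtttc

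Expression was given as TPM, the share of a library's transcripts after correction for transcript length, which sums to 1000000 in every library, and was tested with limma on log2(TPM + 1) over 13061 genes. Between preNeu cells and GMPs, Gata1, Gata2, Tal1, Cbfa2t3, Runx1 and Myb were lower and Ikzf1 was higher, whereas Lyl1 and Lmo2 did not pass the threshold of adjusted p under 0.05. Between matNeu cells and GMPs, 8 of the 9 genes tested were lower and Ikzf1 was higher. Between matNeu and preNeu cells, 6 were lower and none was higher, beside 4 lower with quantile normalization and 8 lower with a pseudocount of 0.1. Of all genes tested, 44.3% were lower and 14.7% higher in preNeu cells than in GMPs, 54.1% lower and 22.8% higher in matNeu cells than in GMPs, and 39.8% lower and 22.9% higher in matNeu than in preNeu cells. The median log2 change of the 9 genes was -1.78, -2.67 and -1.15 in these comparisons, beside -0.52, -0.92 and -0.32 for all genes tested. Gata1 and Tal1 passed the filter of 1 TPM in at least 3 libraries with 4 and 5 libraries and needed their GMP libraries to do so, and Zfpm1 was not tested. Lower levels can come from fewer expressing cells or from less RNA per cell, which cannot be told apart in bulk libraries.

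TPM depends on what else a library holds. The summed level of 6 granule and stage genes that mark preNeu cells, among them Ngp and Ltf, ranged from 145610 to 171430 TPM in preNeu libraries and from 95.4 to 113 TPM in GMP libraries. With median ratio scaling, the share of lower genes among all calls fell from 75.0% to 54.9% for preNeu against GMP, from 70.4% to 54.8% for matNeu against GMP and from 63.5% to 52.8% for matNeu against preNeu, and with quantile normalization it was 51.9%, 49.8% and 49.7%. The direction of every called change of the 9 genes was kept under both scalings. The 7 genes that mark GMPs summed to between 45281 and 47164 TPM in GMP libraries and to between 10.1 and 33.2 TPM in matNeu libraries, and the 8 genes that mark matNeu cells summed to between 37131 and 41181 TPM in matNeu libraries, as the titles of the libraries state. Correlations between libraries of 1 cell type ranged from 0.960 to 0.971 on the log2(TPM + 1) scale.

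**Figure D1:**
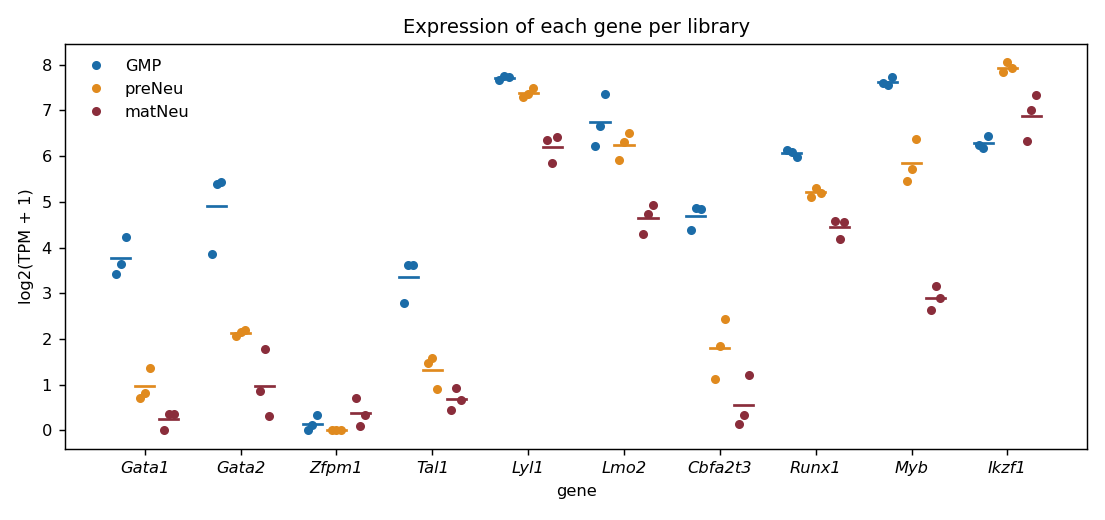
Expression of the 10 genes, as log2(TPM + 1) on the vertical axis, in each of 3 GMP, 3 preNeu and 3 matNeu libraries (points), with the mean of each cell type as a bar. Gata1, Gata2, Tal1 and Cbfa2t3 are separated between GMPs and both later stages, Lyl1 and Myb lie highest in GMPs, and Ikzf1 lies highest in preNeu cells.

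Gata1 (ENSMUSG00000031162, GRCm38 chrX:7959260-7978071, minus strand) was listed at 9.68, 11.4 and 17.8 TPM in GMPs, at 0.637, 0.773 and 1.58 TPM in preNeu cells and at 0, 0.286 and 0.282 TPM in matNeu cells. The GMP libraries were all above the others. The mean was 13.02-fold higher in GMPs than in preNeu cells, and the log2 change in preNeu cells was -2.79 ± 0.31 (SE, n = 3 per cell type, limma adjusted p = 2.59e-05). The log2 change of Gata1 in matNeu cells against GMPs was -3.52 ± 0.31 (limma adjusted p = 1.22e-06), and that against preNeu cells, -0.73 ± 0.31, did not pass (limma adjusted p = 0.0588), but passed with a pseudocount of 0.1 (-2.06, adjusted p = 0.0183) and without a trend in the variance (adjusted p = 0.0361). Among all genes tested, 4.52% had a lower log2 change than Gata1 between preNeu cells and GMPs.

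Gata2 (ENSMUSG00000015053, chr6:88193891-88207032, plus strand) was at 13.6, 41.2 and 42.2 TPM in GMPs, at 3.16, 3.42 and 3.56 TPM in preNeu cells and at 0.810, 2.42 and 0.243 TPM in matNeu cells. The 3 groups did not overlap, although GMP replicate 1 lay far under the other GMP libraries. Its mean was 9.57-fold higher in GMPs than in preNeu cells, with a log2 change of -2.77 ± 0.47 in preNeu cells (limma adjusted p = 0.000475) and of -3.92 ± 0.47 in matNeu cells (limma adjusted p = 1.59e-05), both against GMPs. Without GMP replicate 1 these values were -3.29 and -4.43. The change from preNeu to matNeu cells, -1.15 ± 0.47, missed the threshold (limma adjusted p = 0.0518) and passed it without GMP replicate 1 (adjusted p = 0.0168), GMP replicate 3 (adjusted p = 0.0494) or matNeu replicate 2 (adjusted p = 0.0156), with a pseudocount of 0.1 (-1.91, adjusted p = 0.0369) or with only both of these cell types in the fit (adjusted p = 0.0254).

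Zfpm1 (ENSMUSG00000049577, chr8:122282141-122337251, plus strand) was listed at 0, 0.0772 and 0.270 TPM in GMPs, at 0 in all 3 preNeu libraries and at 0.622, 0.0750 and 0.271 TPM in matNeu cells. No library reached 1 TPM, and no change was tested. The predicted gene Gm20388, whose locus spans Zfpm1 on the same strand without sharing exonic bases in the annotation used, was at 17.96 to 19.8 TPM in GMPs. It was at 19.4 to 30.3 TPM in preNeu cells, where Zfpm1 was listed at 0, and at 0.972 to 2.60 TPM in matNeu cells. Whether Gm20388 and Zfpm1 were separated in the TPM table was not tested. Gm20388 also overlaps Cbfa2t3, on the opposite strand and without shared exonic bases.

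Tal1 (ENSMUSG00000028717, chr4:115056426-115071755, plus strand) was at 5.92, 11.3 and 11.4 TPM in GMPs, at 1.76, 1.99 and 0.887 TPM in preNeu cells and at 0.369, 0.891 and 0.593 TPM in matNeu cells. GMPs lay above both later stages, which overlapped each other. Its mean was 6.17-fold higher in GMPs than in preNeu cells, and the log2 change was -2.03 ± 0.32 in preNeu cells (limma adjusted p = 0.000309) and -2.67 ± 0.32 in matNeu cells (limma adjusted p = 1.69e-05) against GMPs. The change of Tal1 between matNeu and preNeu cells, -0.64 ± 0.32, did not pass (limma adjusted p = 0.105).

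Lyl1 (ENSMUSG00000034041, chr8:84701457-84704715, plus strand), the paralog of Tal1, was at 202, 215 and 211 TPM in GMPs, at 157, 163 and 178 TPM in preNeu cells and at 80.6, 56.3 and 84.3 TPM in matNeu cells. The 3 groups did not overlap. Its log2 change in preNeu cells against GMPs, -0.34 ± 0.15, did not pass (limma adjusted p = 0.0826), passed with only both of these cell types in the fit (adjusted p = 0.0194), and was 0.17 with median ratio scaling. The lower level in matNeu cells passed against GMPs (log2 change -1.52 ± 0.15, limma adjusted p = 4.42e-06) and against preNeu cells (-1.18 ± 0.15, limma adjusted p = 5.54e-05). In GMPs the mean level of Lyl1, 210 ± 6.90 TPM (SD, n = 3), stood far above that of Tal1, 9.54 ± 3.13 TPM.

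Lmo2 (ENSMUSG00000032698, chr2:103957986-103981878, plus strand) was at 74.1, 99.8 and 162 TPM in GMPs, at 59.5, 78.2 and 90.0 TPM in preNeu cells and at 18.6, 25.7 and 29.4 TPM in matNeu cells. GMP and preNeu libraries overlapped, and all matNeu libraries lay under them. The log2 change in preNeu cells against GMPs, -0.50 ± 0.28, did not pass (limma adjusted p = 0.15). It was -0.76 without GMP replicate 1, which passed (limma adjusted p = 0.0367), and 0.01 with median ratio scaling. In matNeu cells Lmo2 was lower than in GMPs (-2.09 ± 0.28, limma adjusted p = 4.27e-05) and than in preNeu cells (-1.59 ± 0.28, limma adjusted p = 0.000517). The antisense gene 4931422A03Rik, which overlaps Lmo2, was at 4.17 to 11.4 TPM in GMPs.

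Cbfa2t3 (ENSMUSG00000006362, chr8:122625141-122699109, minus strand) was at 19.8, 28.3 and 27.8 TPM in GMPs, at 1.17, 2.61 and 4.45 TPM in preNeu cells and at 0.0958, 0.270 and 1.32 TPM in matNeu cells. GMPs were separated from both later stages, which overlapped. Its mean was 9.22-fold higher in GMPs than in preNeu cells, and its log2 change was -2.89 ± 0.39 in preNeu cells (limma adjusted p = 0.000114) and -4.14 ± 0.39 in matNeu cells (limma adjusted p = 2.62e-06) against GMPs. The change from preNeu to matNeu cells, -1.24 ± 0.39, passed (limma adjusted p = 0.0177), but not without preNeu replicate 3 (adjusted p = 0.0715), matNeu replicate 1 (adjusted p = 0.0635) or matNeu replicate 2 (adjusted p = 0.0533), nor with quantile normalization (-0.91, adjusted p = 0.055).

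Runx1 (ENSMUSG00000022952, chr16:92601466-92826149, minus strand) was at 69.1, 66.6 and 62.3 TPM in GMPs, at 33.4, 38.7 and 35.8 TPM in preNeu cells and at 23.0, 17.2 and 22.5 TPM in matNeu cells. The groups did not overlap, and the level stepped down at each stage. The log2 change was -0.86 ± 0.16 in preNeu cells against GMPs (limma adjusted p = 0.000815), -1.62 ± 0.16 in matNeu cells against GMPs (limma adjusted p = 3.05e-06) and -0.76 ± 0.16 in matNeu against preNeu cells (limma adjusted p = 0.0015). The first of these did not pass with median ratio scaling (-0.36, limma adjusted p = 0.0513) and the last did not pass with quantile normalization (-0.23, limma adjusted p = 0.166).

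Myb (ENSMUSG00000019982, chr10:21124935-21160984, minus strand), required for proliferating progenitors, was at 192, 188 and 212 TPM in GMPs, at 42.8, 52.0 and 81.4 TPM in preNeu cells and at 5.17, 7.87 and 6.41 TPM in matNeu cells. It had the lowest log2 change of the 9 genes between matNeu cells and GMPs, -4.74 ± 0.23 (limma adjusted p = 1.34e-08), on the log2(TPM + 1) scale, with a mean 30.4-fold higher in GMPs. As ratios of means, Gata1 (68.5-fold) and Cbfa2t3 (45.1-fold) stood above Myb in that comparison, and with a pseudocount of 0.1 their log2 changes were -5.69 and -5.74 beside -4.92 for Myb. Myb was lower in preNeu cells than in GMPs (-1.78 ± 0.23, limma adjusted p = 8e-05) and lower again in matNeu than in preNeu cells (-2.96 ± 0.23, limma adjusted p = 9.99e-07). Of all genes tested, 5.21% had a lower log2 change than Myb between matNeu cells and GMPs.

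Ikzf1 (ENSMUSG00000018654, chr11:11685003-11772926, plus strand) was at 74.3, 71.0 and 86.0 TPM in GMPs, at 228, 264 and 242 TPM in preNeu cells and at 78.9, 127 and 160 TPM in matNeu cells. The preNeu libraries lay above all others, while GMP and matNeu libraries overlapped. Its mean was 3.17-fold higher in preNeu cells than in GMPs (log2 change 1.66 ± 0.22, limma adjusted p = 9.34e-05), and 94.9% of all genes tested had a lower change. From preNeu to matNeu cells Ikzf1 was lower (-1.05 ± 0.22, limma adjusted p = 0.00155). The difference between matNeu cells and GMPs, 0.60 ± 0.22, passed (limma adjusted p = 0.0271), but not without GMP replicate 1 (adjusted p = 0.0599), GMP replicate 2 (adjusted p = 0.0751), matNeu replicate 2 (adjusted p = 0.0744) or matNeu replicate 3 (adjusted p = 0.104), nor without the filter, without a trend or with only both of these cell types in the fit (adjusted p from 0.0513 to 0.0575).

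**Figure D2:**
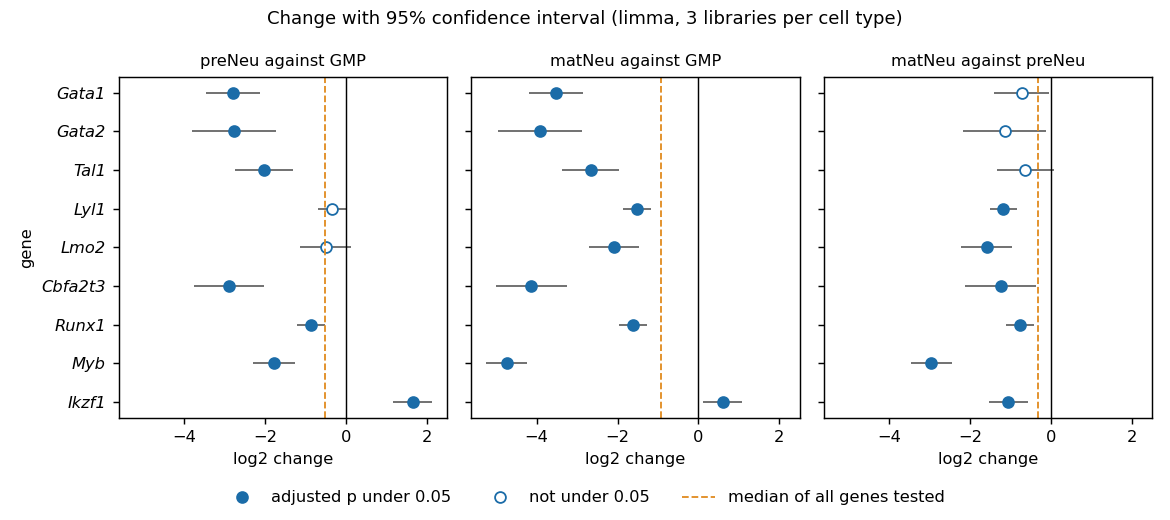
Log2 change with its 95% confidence interval (horizontal axis) for the 9 genes tested in the 3 comparisons, filled where the adjusted p was under 0.05, with the median of all 13061 genes as a dashed line. Ikzf1 is the only one of the 9 genes with a positive change in the comparisons with GMPs, and in matNeu against preNeu cells all 9 points lie under 0.

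The order of the mean levels changed along the lineage. In GMPs Lyl1 (210 TPM) and Myb (197 TPM) stood first, and their ranges overlapped. Lmo2 and Ikzf1 followed with overlapping ranges, then Runx1, and Gata2, Cbfa2t3, Gata1 and Tal1 lay between 32.3 and 9.54 TPM. In preNeu cells Ikzf1 led (245 TPM), followed by Lyl1, then by Lmo2 and Myb with overlapping ranges. In matNeu cells Ikzf1 and Lyl1 led with overlapping ranges (122 and 73.7 TPM), Lmo2 and Runx1 followed with overlapping ranges, and Myb lay at 6.48 TPM. Gata2, Cbfa2t3, Tal1 and Gata1 were under 4 TPM on average in preNeu cells.

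For each gene tested, the genes with the highest Pearson correlation of log2(TPM + 1) over the 9 libraries were listed as a description, since the points of 1 cell type share their stage. For Gata1 these were Itga5 (r = 0.995), Zfp966 (0.994) and Cnksr3 (0.994). For Gata2 and Tal1 the first gene was Lipt2 in both (r = 0.985 and 0.988). For Ikzf1 they were C1qb (r = 0.984), Aplnr (0.966) and E330009J07Rik (0.965), of which C1qb was at a mean of 1.37 TPM in GMPs and 37.5 TPM in preNeu cells. The first gene was Nup85 for Lyl1 (r = 0.996), Coq2 for Lmo2 (0.987), Abcf1 for Cbfa2t3 (0.997), Mrfap1 for Runx1 (0.997) and Ncln for Myb (0.997).

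Of 19 paralogs of these genes, 9 could be tested. Between matNeu cells and GMPs, 6 of them were lower and 2 higher, beside 54.1% and 22.8% of all genes tested. Between preNeu cells and GMPs 4 were lower and 2 higher, beside 44.3% and 14.7%. Ikzf2, which encodes HELIOS, went from 16.9 TPM in GMPs to 1.10 TPM in preNeu cells (log2 change -3.12 ± 0.29, limma adjusted p = 8.21e-06), but reached 1 TPM in 4 libraries, 3 of them of GMPs, and so passed the filter only through the group in which it was high. Runx3 (-1.31 ± 0.21, limma adjusted p = 0.000363) and Runx2 (-0.98 ± 0.21, limma adjusted p = 0.00191) were lower in preNeu cells than in GMPs, as Runx1 was. The change of Runx2 did not pass with median ratio scaling (-0.51, limma adjusted p = 0.062) or quantile normalization (-0.28, limma adjusted p = 0.293). That of Runx1 did not pass with median ratio scaling. Runx2 was higher in matNeu than in preNeu cells (1.74 ± 0.21, limma adjusted p = 2.5e-05), where Runx1 was lower. Mybl2, a paralog of Myb active in dividing cells, was at 61.7 TPM in GMPs, 45.2 TPM in preNeu cells and 2.66 TPM in matNeu cells, and its change between preNeu cells and GMPs did not pass (-0.42 ± 0.29, limma adjusted p = 0.234) and was 0.0824 and 0.0686 with median ratio scaling and quantile normalization. Lmo4 was higher in preNeu cells than in GMPs (1.10 ± 0.12, limma adjusted p = 3.15e-05). Lmo1 was at 13.7 TPM in GMPs, 35.8 TPM in preNeu cells and 0.3603 TPM in matNeu cells. The ETO2 paralog Cbfa2t2 was lower in matNeu cells than in GMPs (-1.16 ± 0.23, limma adjusted p = 0.000789), as was Ikzf5 (-1.26 ± 0.31, limma adjusted p = 0.00333), but neither passed with median ratio scaling (-0.31 and -0.46) or quantile normalization (0.03 and 0.16).

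Of 18 partners and related factors, 17 were tested. In matNeu cells against GMPs 13 were lower and 3 higher, where 54.1% and 22.8% of all genes tested were. In preNeu cells against GMPs 6 were lower and 4 higher, where 44.3% and 14.7% of all genes were. For paralogs and partners together, 10 of 16 calls in preNeu cells against GMPs were lower, and 6 of 16 under either scaling. Of all calls in that comparison 75.0% were lower, and 54.9% and 51.9% with median ratio scaling and quantile normalization. In matNeu cells against GMPs, 19 of 24 were lower, beside 14 of 21 with median ratio scaling and 11 of 18 with quantile normalization. Of all calls there, 70.4%, 54.8% and 49.8% were lower. Ldb1, the bridge to LMO2, was at 18.4, 8.78 and 5.75 TPM in GMP, preNeu and matNeu cells. Its change in preNeu cells against GMPs (-1.04 ± 0.37, limma adjusted p = 0.0321) did not pass with either scaling (-0.57 and -0.38), nor without GMP replicate 2 or 3 or preNeu replicate 1 or 3 (adjusted p from 0.062 to 0.126). The LDB1 stabiliser Ssbp2 was lower in that comparison (-1.57 ± 0.16, limma adjusted p = 1.91e-05). Among the E proteins, Tcf4 was lower in preNeu cells than in GMPs (-2.77 ± 0.26, limma adjusted p = 9.16e-06), while Tcf3 at 51.8 and 59.0 TPM and Tcf12 at 26.9 and 15.1 TPM did not pass in that comparison. Cbfb, the partner of RUNX1, was at 43.4, 42.0 and 17.1 TPM in the 3 stages and was lower in matNeu cells than in preNeu cells (-1.26 ± 0.18, limma adjusted p = 9.33e-05). The ETS factor gene Erg was higher in preNeu cells than in GMPs (1.11 ± 0.38, limma adjusted p = 0.0286, not passed without GMP replicate 1 or any 1 preNeu replicate, with adjusted p from 0.0641 to 0.096) and lower in matNeu cells than in GMPs (-2.88 ± 0.38, limma adjusted p = 3.89e-05), and Fli1 was higher in preNeu cells than in GMPs (0.74 ± 0.14, limma adjusted p = 0.00105). Spi1, which encodes PU.1, rose at both steps, from 380 to 766 and 2020 TPM (limma adjusted p = 0.00208 and 0.000292). Nfe2 was at 268, 319 and 715 TPM, and Hhex at 68.4, 68.6 and 129 TPM, and both were higher in matNeu than in preNeu cells (limma adjusted p = 4.45e-06 and 4.57e-05). Ssbp4 was at 82.1, 114 and 16.1 TPM, and Etv6 at 65.1, 34.9 and 41.4 TPM. Gfi1 was at 10.5 TPM in GMPs, 24.2 TPM in preNeu cells and 0.0482 TPM in matNeu cells.

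Marker genes of other cell types were summed per library beside these changes. The 5 eosinophil markers summed to between 863 and 1133 TPM in GMP libraries, to between 19.2 and 21.8 TPM in preNeu libraries and to between 0.937 and 2.71 TPM in matNeu libraries, and Prg2 alone averaged 759 TPM in GMPs. Mast cell and basophil markers summed to between 810 and 1022 TPM in GMPs, with Cpa3 at 235 TPM and Ms4a2 at 117 TPM, and to between 623 and 777 TPM in preNeu cells, where 4 of the 8 tested were lower. That preNeu sum was mostly Hdc at 318 TPM and Prss34 at 275 TPM, neither of which passed against GMPs. Cpa3 was at 24.5 TPM there, Ms4a2 at 18.3 TPM, and Gzmb and Cma1 were listed at 0 in all preNeu libraries. Gzmb and Cma1, both called lower, reached 1 TPM only in GMP libraries. They passed the filter only through the group in which they were high. The mast cell and basophil sum in matNeu cells, 1557 to 1837 TPM, was mostly Hdc at 1697 TPM, while Cpa3 was at 1.73 TPM and Ms4a2 at 0.431 TPM. The 9 megakaryocyte markers summed to between 40.9 and 56.5 TPM in GMPs and to between 6.53 and 10.9 TPM in preNeu cells. The GMP sum was mostly Itga2b, at 33.1 TPM in GMPs and 1.85 TPM in preNeu cells, and 4 of the markers averaged under 1 TPM in GMPs. Of the 6 megakaryocyte markers tested, 4 were lower in preNeu cells than in GMPs, beside 44.3% of all genes tested. Gp1bb was higher, at 2.83 TPM beside 0.383 TPM, where 14.7% of all genes were higher. Of the 15 erythroid markers, 9 averaged under 1 TPM in GMPs, and 4 were listed at 0 in all GMP libraries. Of the 8 erythroid markers tested, 2 were lower in preNeu cells than in GMPs, among them Klf1. Klf1 reached 1 TPM only in GMP libraries, and so passed the filter only through the group in which it was high. The 2 that were higher in preNeu cells were both globin genes, whose near-identical copies can share reads. Klf1 averaged 5.22 TPM in GMPs and 0.401 TPM in preNeu cells, and Tfrc, which dividing cells also use, 79.0 TPM in GMPs. Of the 10 stem cell markers, which summed to between 45.8 and 54.5 TPM in GMPs and to between 9.10 and 19.8 TPM in preNeu cells, 3 averaged under 1 TPM in GMPs and Meis1 averaged 32.9 TPM. B cell markers, of the lineage in which Ikzf1 is best known, summed to between 81.7 and 96.1 TPM in GMPs, to between 29.1 and 50.5 TPM in preNeu cells and to between 63.1 and 138 TPM in matNeu cells, and Cd79a averaged 0.270, 6.98 and 22.7 TPM. Monocyte markers summed to between 4498 and 5356 TPM in GMPs and to between 1687 and 2222 TPM in preNeu cells, where Ly6c2 alone averaged 1866 TPM. All 7 monocyte markers were lower in preNeu cells than in GMPs, with a median log2 change of -4.83, and Irf8 went from 513 to 12.5 TPM, F13a1 from 906 to 13.3 TPM and Ccr2 from 127 to 3.61 TPM. T cell markers summed to between 4.59 and 11.4 TPM in GMPs and between 14.8 and 19.8 TPM in matNeu cells. The part of such cells in the changes of Gata1, Gata2, Tal1, Cbfa2t3 and Ikzf1 was not tested.

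CHD4 was listed at 53 peaks of WT GMPs within 10 kb of the 10 genes, at 6 genes in all, beside 32.4% of all 21938 protein-coding genes with such a peak. Ikzf1 had 19 peaks, Myb 14, Runx1 14, Lmo2 4, and Tal1 and Cbfa2t3 1 each, and no peak lay within 10 kb of Gata1, Gata2, Zfpm1 or Lyl1. Ikzf1 had more peaks than 99.3% of coding genes, and Myb and Runx1 more than 98.4%, in windows of 108, 56.1 and 245 kb. Per 100 kb of window, Myb had 25.0 peaks, Ikzf1 17.6, Lmo2 9.11 and Runx1 5.72. Of the 53 peaks, 34 had their summit in an intron, 6 in a promoter (2 kb upstream to 500 bp downstream of a coding transcript start), 4 in an exon, 5 upstream and 4 downstream of the gene. The fold enrichment of a peak over its background, a ratio given by the peak caller, ranged from 3.45 to 22.7 with a median of 6.83, beside 7.72 for all 35790 CHD4 peaks. Each ChIP-seq list came from 1 library of unknown depth, so differences between genotypes or stages have no replicate check.

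The strongest peak of the 53, at 22.7-fold, lay 92.5 kb from the start of Ikzf1 and downstream of the gene (chr11:11776798-11778097). At Myb the strongest peak, at 21.7-fold, lay 14.4 kb into the gene (chr10:21145911-21146815), in a stretch that is exonic only in a retained-intron transcript. A second peak at Myb, 7.25 kb from its start, reached 16.0-fold. At Runx1, whose coding transcripts start at several places, the strongest peak lay 24.4 kb from the distal start (chr16:92801582-92802034, 18.1-fold), and peaks of 5.94-fold and 5.24-fold lay at coding starts, 0.475 and 129 kb from the distal start. At Lmo2 the peaks ranged from 3.97-fold to 6.39-fold, and 1 of them lay at a coding transcript start 11.6 kb into the gene. The summit at Tal1 lay upstream, at -8.40 kb from the gene start (5.58-fold), and that at Cbfa2t3 at -3.42 kb (4.41-fold).

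In Gfi1KO GMPs, 10.2% of coding genes had a CHD4 peak within 10 kb, and 3 of the 10 genes did. They had 6 peaks in all, 4 at Ikzf1, 1 at Myb and 1 at Runx1, and each overlapped a WT peak by at least 1 bp. Of the 53 WT peaks, 6 (11.3%, 95% Wilson interval 5.29% to 22.6%, counting error only) overlapped a Gfi1KO peak, beside 18.5% of all WT peaks. The share at these genes was near that of all peaks, which lies within the interval. Peaks that were kept had WT fold enrichments of 11.4 to 22.7 with a median of 17.7, and peaks that were not kept ranged from 3.45 to 17.4 with a median of 6.39. Among peaks under 10-fold, 0 of 38 were kept at these genes, beside 2.57% of all such peaks. Among peaks of 15-fold or more, 5 of 7 were kept, beside 74.0% of all such peaks.

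The kept peaks had lower fold enrichments in the Gfi1KO list, which was made from a library of its own. At Myb the Gfi1KO peak was at 7.77-fold, beside 21.7-fold in WT GMPs. At Ikzf1 the Gfi1KO peaks were at 7.89-fold and 7.60-fold within the gene, 4.04 and 78.5 kb from its start, and at 5.07-fold and 4.72-fold downstream of it, beside 16.4, 17.3, 22.7 and 11.4-fold in WT GMPs. At Runx1 the Gfi1KO peak was at 4.51-fold, beside 18.1-fold. The strong peaks that were not kept were 1 at Runx1, 3.81 kb from the distal start (17.4-fold), and that at Myb 7.25 kb from its start. The Gfi1KO list held 7316 peaks in all, and with only the 7316 WT peaks of the lowest q-value, 5 of 9 WT peaks at these genes were kept (55.6%), beside 72.5% of all 7316.

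**Figure D3:**
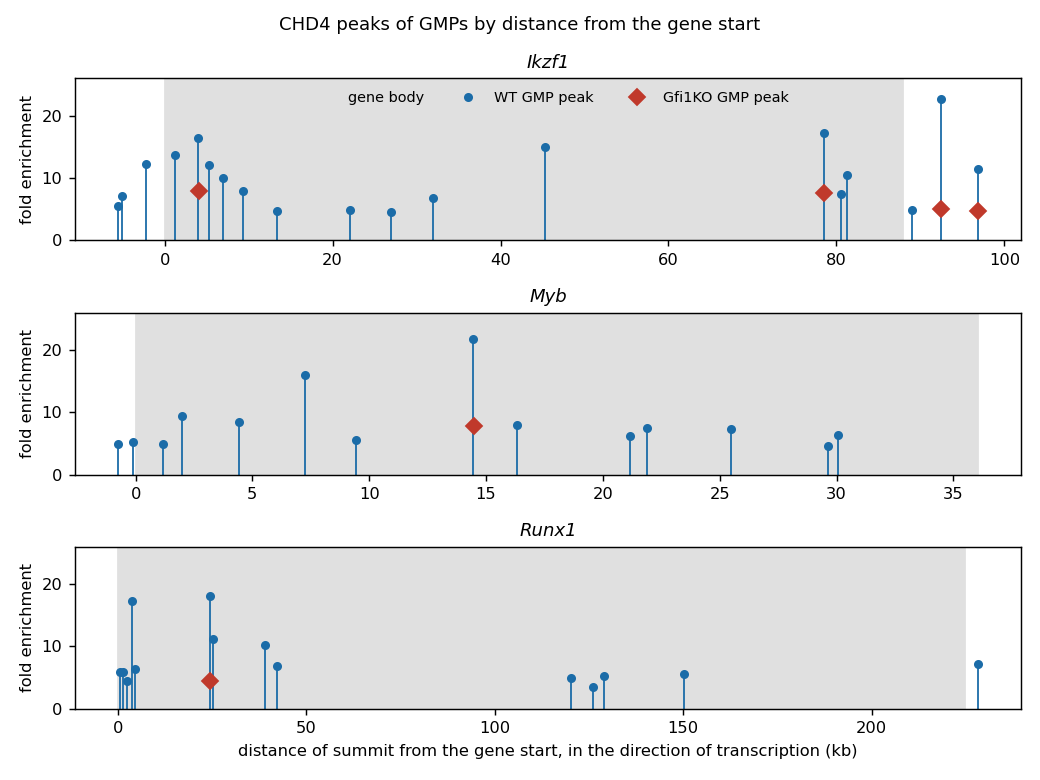
CHD4 peaks of WT GMPs (circles) and Gfi1KO GMPs (diamonds) at Ikzf1, Myb and Runx1, with the distance of the summit from the gene start in kb on the horizontal axis and the fold enrichment on the vertical axis, 1 library each. The 4, 1 and 1 peaks of Gfi1KO GMPs lie at WT peaks of 11.4-fold or more, and the gene body is shaded.

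The letters of motifs were counted in 201 bases around the summits of the 53 WT peaks, on both strands, beside 35728 windows of all WT peaks on assembled chromosomes. An E-box, CAGATG or CAGCTG, was found in 37.7% of the 53 windows (95% Wilson interval 25.9% to 51.2%) and in 26.2% of all windows. GATA motifs, AGATAA or TGATAA, were found in 11.3% and 14.9%, TGTGGT in 22.6% and 24.0%, and GAGGAA in 43.4% and 46.1%. AAATCA was found in 16.98% and 12.1%, and AACTG, the core bound by MYB, in 52.8% and 50.2%. In 101 bases around the summit, the E-box was found in 30.2% (19.5% to 43.5%) and in 14.3% of all windows, and GATA motifs in 9.43% (4.10% to 20.3%) and 6.81%, so that the order of these shares for GATA motifs turned with the window. Most of the 53 windows came from 3 genes and were not independent. A match is a description of the letters and not of binding. RefSeq promoters of GRCm38.p6, from 250 bases before to 50 after a start, were found for 9 of the 10 genes (all but Lmo2), 14 promoters in all. Of these, 14.3% held a GATA motif, beside 18.6% of 32851 promoters, and 28.6% held an E-box, beside 30.6%. For the letters of RUNX factors the shares were 7.14% and 16.8%, and for those of ETS factors 35.7% and 28.3%. For the letters of GFI1 they were 7.14% and 14.0%, and for those of MYB 14.3% and 44.8%. With 14 promoters these shares are coarse, and they were not tested.

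H3K4me2 peaks covered a median of 16.4% of the windows of the 10 genes (gene and 10 kb on either side) in GMPs, 26.6% in preNeu cells and 16.1% in matNeu cells, beside 3.83%, 6.43% and 4.81% for all coding genes. The lists covered 49.8, 97.9 and 80.4 Mb of the genome, so that a stage is read against the coverage of all genes in the same list. Of the 10 genes, 9 had a coding transcript start in an H3K4me2 peak in GMPs, 10 in preNeu cells and 9 in matNeu cells, beside 55.2%, 59.1% and 57.0% of coding genes. Gata1 was the exception in GMPs and matNeu cells.

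Gata1 had no H3K4me2 peak within 10 kb in GMPs or matNeu cells, and a single peak of 681 bp in preNeu cells (3.27-fold), although its TPM was highest in GMPs. At Gata2 the coverage was 28.9% in GMPs, 18.2% in preNeu cells and 4.20% in matNeu cells, which was more than in 97.4%, 78.6% and 47.3% of coding genes. The widest Gata2 peak was 3364 bp in GMPs, 2680 bp in preNeu cells and 549 bp in matNeu cells, and the number of its 3 coding starts in a peak was 3, 3 and 1. Coverage at Zfpm1 was 12.1%, 8.37% and 7.23%, and its start lay in a peak at every stage while its TPM stayed under 1. At Cbfa2t3 coverage was 17.6%, 12.4% and 6.61%. These 3 genes had less coverage at each later stage, whereas the median over all coding genes was lowest in the GMP list.

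At Myb, Ikzf1, Runx1, Lmo2, Tal1 and Lyl1 coverage was highest in preNeu cells, as for the median coding gene (3.83%, 6.43% and 4.81%). The share of coding genes with less coverage went from 86.9% in GMPs to 94.1% in preNeu cells at Myb and from 82.7% to 89.8% at Ikzf1. It went from 72.7% to 86.6% at Runx1 and from 95.7% to 98.0% at Lmo2. At Tal1 it went from 93.4% to 92.4%, and at Lyl1 from 99.4% to 98.2%. Coverage at Myb was 15.1% in GMPs, 35.6% in preNeu cells and 30.3% in matNeu cells, while its TPM was lower at each later stage. In preNeu cells a peak of 6080 bp lay over the strongest CHD4 site of Myb, where no H3K4me2 peak was listed in GMPs. Coverage was 12.6%, 28.6% and 25.1% at Ikzf1, and 8.80%, 24.6% and 15.8% at Runx1, which had 14, 23 and 22 peaks. Of the 5 coding starts of Runx1, 5, 5 and 3 lay in a peak. Lmo2 had 24.6%, 48.7% and 33.0%, and Tal1 20.9%, 32.1% and 16.5%. Lyl1, in the smallest window, had 1 broad peak of 10003, 11596 and 11237 bp and a coverage of 43.0%, 49.9% and 48.3%, but at each stage this peak also overlapped the neighbouring coding genes Nfix and Trmt1. The windows of Zfpm1, Lmo2 and Cbfa2t3 likewise hold other coding genes, so that coverage there is not of the named gene alone.

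**Figure D4:**
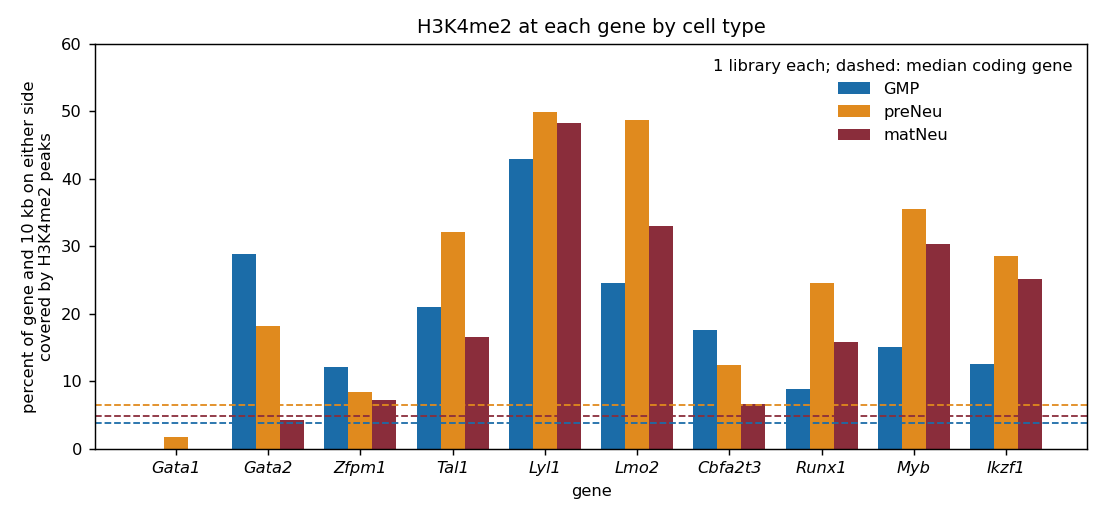
Percent of each gene and 10 kb on either side that is covered by H3K4me2 peaks (vertical axis, bars from 0) in GMP, preNeu and matNeu cells, 1 library each, with the median of all coding genes as dashed lines. Gata2 runs from 28.9% to 4.20%, while Myb, Ikzf1, Runx1, Lmo2, Tal1 and Lyl1 are higher in preNeu cells than in GMPs, as the median coding gene is.

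Of the 53 CHD4 peaks of WT GMPs at these genes, 26 overlapped an H3K4me2 peak of GMPs, 43 one of preNeu cells and 34 one of matNeu cells, which is 49.1%, 81.1% and 64.2%, beside 37.8%, 59.5% and 52.5% of all CHD4 peaks. Of the 6 sites kept in Gfi1KO GMPs, 2 overlapped H3K4me2 in GMPs and 4 in preNeu cells. Open chromatin overlapped 11 of the 53 peaks (20.8%), beside 10.1% of all CHD4 peaks, and 2 of the 6 kept sites. The single ATAC-seq list held 7 peaks at Runx1, 3 at Myb, 2 at Ikzf1, 2 at Lmo2, 1 each at Zfpm1, Tal1, Lyl1 and Cbfa2t3, and none at Gata1 or Gata2.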

How the data were processed

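Libraries were grouped by their titles, because the cell type in the titles differs from that in another label for 13 of the 18 samples. Expression values were deposited by the authors in TPM for each gene and library, a unit that keeps no depth. The submitters' processing notes name kallisto 0.44.0, BWA 0.7.17 and MACS2 2.1.0, whereas the labels describe Tophat, HTSeq and DESeq, and how TPM was computed is not given in the sources used here. No column of the table was left unused (0 columns). The deposited peak lists give a fold enrichment, a ratio over background, the −log10 q-value and, for CHD4, the offset of the summit (all as deposited by the authors), 1 list per library. In the CHD4, H3K4me2 and ATAC-seq lists, no peak on an assembled chromosome of GRCm38 lies beyond its end. Peaks outside the assembled chromosomes were not checked. The lists for GFI1 and H3K4me3 hold 3105 and 2179 peaks beyond chromosome ends and were not used here.

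Changes were tested with limma 3.58.1 (R 4.3.3) after adding 1 to each TPM and taking log2. Genes needed 1 TPM in 3 or more libraries. The model held only the cell type, the variance was fitted with a trend, and p-values were adjusted by Benjamini-Hochberg (0.05). Fold changes on this scale understate the change of low genes. The fit and the overlap code were tested on simulated data. Peaks within 10 kb of a gene in GENCODE M21 were taken with Python 3.11.15 and pandas 2.3.3, sequences with pysam 0.24.0, and plots with matplotlib 3.10.9. No test was made on peaks. Some erythroid marker genes are not reported here singly. All 10 genes are reported, with paralogs and partners of at least 10 TPM in a cell type, the 3 most correlated genes (3 named for Gata1 and Ikzf1, the first for the others), the strongest WT CHD4 peak and every kept peak. The genes, lists and rules were chosen with earlier results of these data known. Alternatives were other pseudocounts, filters, scalings, fits and left-out libraries, and other peak thresholds, overlaps and windows.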

Additional observations from a re-analysis of the deposited data

How the results depend on the processing

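Most values kept their direction and their side of the threshold. Requiring at least 1 TPM in all 9 libraries left 5 of the 10 genes in the test, so that 3 were called in preNeu cells against GMPs and 5 in matNeu cells against GMPs, and 10 paralogs and partners were called in preNeu cells against GMPs (16 with the filter used). With median ratio scaling, the changes of Lyl1 and Lmo2 in preNeu cells against GMPs turned to 0.17 and 0.007, and neither passed the threshold at either setting. Among paralogs and partners, signs turned with median ratio scaling for Mybl2 (0.0824), Ikzf5 (0.17) and Cbfb (0.46) in preNeu cells against GMPs, for Etv6 (0.21) in matNeu cells against GMPs, and for Lmo4 (0.0733), Runx3 (0.14) and Tcf4 (0.25) in matNeu against preNeu cells. With quantile normalization they turned for Mybl2 (0.0686), Ikzf5 (0.33) and Cbfb (0.52) in the first comparison, for Cbfa2t2 (0.0306), Ikzf5 (0.16) and Etv6 (0.18) in the second, and for Cbfa2t2 (0.074), Runx3 (0.56), Ldb1 (0.24), Ssbp2 (0.10) and Tcf4 (0.69) in the third. Of these turned values, that of Cbfb passed with both scalings, and those of Runx3 and Tcf4 with quantile normalization. Leaving out 1 library at a time gave both signs for 5 changes that did not pass with all 9, with -0.0336 to 0.78 for Tcf3, -0.15 to 0.0216 for Cbfb and -0.0443 to 0.0482 for Hhex in preNeu cells against GMPs, -0.0872 to 0.11 for Fli1 in matNeu cells against GMPs, and -0.21 to 0.18 for Tcf4 in matNeu against preNeu cells. The cause of these turns was not tested.

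Libraries with the same replicate number had low correlations of deviations (-0.04 to 0.12), which cannot exclude that the numbers pair them. In matNeu against preNeu cells these were all positive, at 0.0186, 0.0681 and 0.123. With the number as a replicate block, 8 of the 9 genes were called in preNeu cells against GMPs, 9 in matNeu cells against GMPs and 8 in matNeu against preNeu cells, beside 7, 9 and 6 without it, the added calls being Lmo2 in the first comparison (adjusted p = 0.0247) and Gata1 and Gata2 in the last (adjusted p = 0.0421 and 0.0413). For paralogs and partners the block gave 15, 24 and 15 calls.

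With a WT list as long as the Gfi1KO list, the share of kept CHD4 peaks was 55.6%, by construction of stronger peaks only. H3K4me2 peaks covered 14.2%, 23.9% and 16.9% of the summed windows in GMP, preNeu and matNeu cells. For peaks past 5 in −log10 q these were 10.3%, 19.3% and 12.995%, within 2 kb 16.3%, 27.8% and 19.7%, and with equal numbers of peaks 21.1% and 16.0% in preNeu and matNeu cells. In 101 bases around the summit, shorter windows by construction, TGTGGT was found in 13.2%, GAGGAA in 26.4%, AAATCA in 5.66% and AACTG in 32.1% of the CHD4 windows at these genes, beside 13.9%, 30.5%, 5.62% and 31.0% of all CHD4 windows, and GATA motifs in 9.43% beside 6.81%. Depth is unknown for every library, which limits what a missing peak or a TPM of 0 can show.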
